A study of Mus musculus with 6 samples.

Results

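The glucocorticoid receptor gene *Nr3c1* and 9 genes that glucocorticoids are known to induce were followed in IL-4-treated bone marrow-derived macrophages (BMDMs) with and without Acly. The 10 members are *Nr3c1*, *Fkbp5*, *Zbtb16*, *Tsc22d3*, *Per1*, *Dusp1*, *Klf9*, *Sgk1*, *Cd163* and *Zfp36*, out of 24445 genes in the table. They were picked by symbol, and the transcript row of each was chosen by the highest summed read count over all 6 libraries, a value that does not separate the genotypes. All 10 passed the filter on low counts. *Zbtb16* passed only through its counts in AclyM-KO. Because the members were chosen with earlier results of these libraries known, each is described singly, and counts over them are set beside the share of all genes tested.

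The libraries came from BMDMs of female mice. AclyM-KO cells carry Acly alleles with loxP sites around exon 9 together with Cre driven by *Lyz2*, a gene of the myeloid lineage, and Ctrl cells are their Acly fl/fl littermates. The methods describe both as C57Bl/6J crosses, and the ages of the mice used for BMDMs are not given in the sources used here. Both groups were grown for 7 days in medium with serum and L929-conditioned medium and then received 100 U/mL IL-4 for 24 h, so IL-4 is shared by every library, and no added glucocorticoid is named in the methods. There were 3 libraries per group. The study calls these replicates biological in one place and technical, from pooled mice, in another, so the p-values measure the spread between libraries, which may be technical.

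The glucocorticoid receptor is a nuclear receptor that waits in the cytosol in a complex with Hsp90 and its co-chaperones. On binding cortisol or corticosterone it enters the nucleus, where it binds paired hexamers on DNA, the glucocorticoid response elements (GREs), and also holds back inflammatory transcription factors. In macrophages, glucocorticoids are known for dampening cytokine production and for raising scavenger receptors and phagocytosis genes.

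RefSeq windows of 250 bases before and 50 bases after a gene's start (GRCm38.p6) were found for 8 of the 10 members. A full GRE (AGAACA, 3 bases of any kind and TGTTCT, a palindrome that reads alike on both strands) was found in 3 of 32851 windows, or 0.00913%, and 1 of these belongs to the kinase gene *Sgk1*. It lies at -189 to -175 relative to the start site, reads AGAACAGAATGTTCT, and contains the half-site AGAACA on both strands. *Sgk1* has 6 windows for its alternative starts. The half-site alone, on either strand, is common (19% of windows, 21.3% of genes) and was found for 3 members, *Sgk1*, *Cd163* and *Tsc22d3*. *Tsc22d3* has 3 windows, so it and *Sgk1* had more places for a match than a gene with 1 window. The cAMP response element TGACGTCA was found in 1.79% of windows (2.03% of genes) and, among the members, in that of *Dusp1*. The windows of *Fkbp5*, *Klf9*, *Per1* and *Zfp36* held none of these letters, which says nothing about elements elsewhere. The 250 bases before the start are shown 5′ to 3′ for the *Sgk1* window with the full GRE, the *Dusp1* window with the cAMP response element, the *Cd163* window with a half-site and the *Fkbp5* window without a match, with the matched letters in capitals.
Sgk1, chr10:21993640-21993889, plus strand: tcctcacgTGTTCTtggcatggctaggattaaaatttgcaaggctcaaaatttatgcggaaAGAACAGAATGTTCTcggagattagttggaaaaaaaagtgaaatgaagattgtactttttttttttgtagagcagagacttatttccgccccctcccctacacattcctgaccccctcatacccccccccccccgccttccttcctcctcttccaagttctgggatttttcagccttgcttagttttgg
Dusp1, chr17:26508473-26508722, minus strand: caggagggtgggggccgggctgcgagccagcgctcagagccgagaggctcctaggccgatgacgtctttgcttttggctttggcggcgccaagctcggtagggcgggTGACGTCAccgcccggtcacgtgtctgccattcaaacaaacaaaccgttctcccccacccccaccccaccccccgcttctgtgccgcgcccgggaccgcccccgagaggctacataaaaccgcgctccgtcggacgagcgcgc
Cd163, chr6:124304401-124304650, plus strand: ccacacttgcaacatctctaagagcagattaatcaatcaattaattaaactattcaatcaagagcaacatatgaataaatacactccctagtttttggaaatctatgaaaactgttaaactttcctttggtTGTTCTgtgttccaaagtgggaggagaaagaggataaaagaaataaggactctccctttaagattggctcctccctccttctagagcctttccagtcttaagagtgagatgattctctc
Fkbp5, chr17:28486150-28486399, minus strand: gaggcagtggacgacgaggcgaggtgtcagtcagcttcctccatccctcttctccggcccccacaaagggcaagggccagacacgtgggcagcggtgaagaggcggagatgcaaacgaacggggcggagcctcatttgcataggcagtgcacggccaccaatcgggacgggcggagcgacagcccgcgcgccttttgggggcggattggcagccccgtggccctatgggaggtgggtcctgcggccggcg

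Between 12151975 and 15587283 reads were counted per library on the rows kept for each gene. As a check of the labels, *Acly* was at 321 to 350 CPM (read counts standardised to a fixed library total after TMM scaling) in Ctrl and 134 to 146 CPM in AclyM-KO. Macrophage markers summed to 13807 to 15149 CPM in Ctrl and 11526 to 11986 CPM in AclyM-KO. *Lyz2*, the gene that drives Cre, took the largest share (log2 fold change -0.67, edgeR adjusted p = 5.79e-08). Of the 9 markers, 4 were lower and 1 higher, where 12.6% of all genes tested were lower and 12.4% higher. These percentages also stand beside the counts of the other marker lists. The 9 neutrophil markers summed to 16.5 to 18.8 CPM in Ctrl and 24.3 to 26.1 CPM in AclyM-KO, with 5 of them, among them *Ly6g*, *Mpo* and *Elane*, under 1 CPM in every library. Of the 4 tested, *S100a8* (0.85, edgeR adjusted p = 0.00257) and *S100a9* (0.59, edgeR adjusted p = 0.0152) were higher, the latter not without Ctrl replicate 3, and 0 were lower by edgeR at an adjusted or unadjusted p under 0.05. The part of neutrophil transcripts in the results was not tested. All 8 lymphocyte markers, all 6 mast cell and basophil markers and all 5 fibroblast markers were under 1 CPM in every library. The 7 dendritic cell markers summed to 9.46 to 12.0 CPM in Ctrl and 9.66 to 10.9 CPM in AclyM-KO, and of the 3 tested 1 was higher, *Cd209a*, with 3, 3 and 6 counts in Ctrl and 12, 16 and 15 in AclyM-KO (1.65, edgeR adjusted p = 0.0128). *Cd209a* passed the filter on low counts only through AclyM-KO. Its call was lost with DESeq2 and without Ctrl replicate 1, and the gene's part in the results was not tested. In bulk RNA, a change in the number of cells that express a gene and a change in RNA per cell cannot be told apart.

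The members did not move together. *Fkbp5* and *Zbtb16* were several-fold higher in AclyM-KO, *Cd163* and *Zfp36* were modestly higher, *Per1*, *Klf9* and, by a small margin, *Nr3c1* itself were lower, and *Dusp1*, *Tsc22d3* and *Sgk1* did not pass the test. With edgeR's quasi-likelihood test and an adjusted p-value under 0.05 over the 12023 genes tested, 4 members were higher and 3 lower, where 24.9% of all genes tested passed in either direction, 12.4% higher and 12.6% lower. Beyond a log2 fold change of 0.58, the limit used in the study, were 2 higher members and 1 lower member, against 2.98% and 2.57% of all genes tested (5.55% in either direction). The groups did not overlap for 8 of the 10 members, as for 40.2% of genes tested. *Zbtb16*, which was tested only through its AclyM-KO counts, is among the higher members in each count and among these 8. The median log2 fold change of the members was 0.21, and that of all genes tested was 0.0014. No member shares exonic bases with another gene in GENCODE M21.

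**Figure D1:**
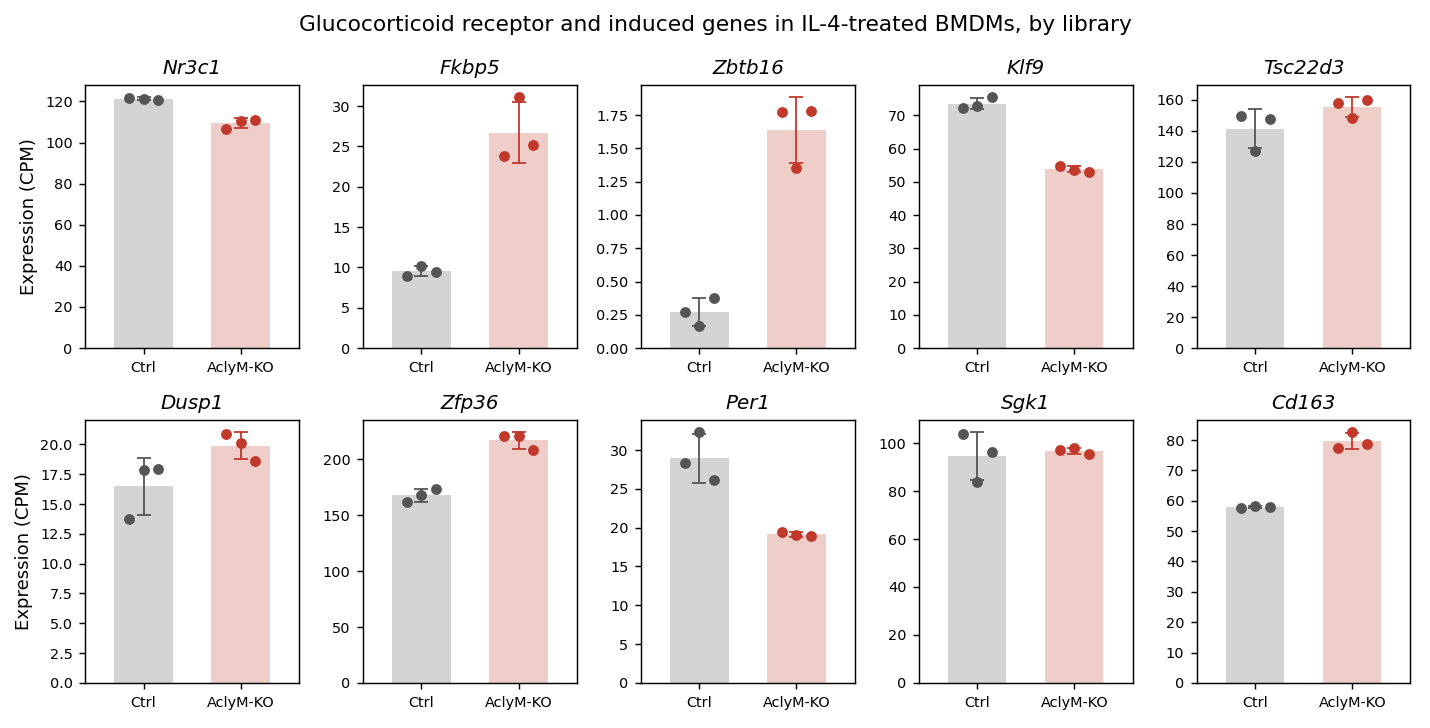
Expression of the 10 members in CPM (y axis, from 0, own scale per gene) in 3 Ctrl and 3 AclyM-KO libraries, with bars for the mean, error bars for the SD and points for single libraries. Only *Tsc22d3* and *Sgk1* have overlapping groups, while *Fkbp5* and *Zbtb16* have the widest gaps relative to their level.

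*Nr3c1*, on the minus strand of chromosome 18, encodes the receptor. Its level was 122, 121 and 121 CPM in Ctrl and 107, 111 and 111 CPM in AclyM-KO. Every AclyM-KO library was below every Ctrl library, but the gap was small, 109 ± 2.38 against 121 ± 0.684 CPM (SD, n = 3 each). On the log2 scale the difference was -0.15, with a standard error (SE) of 0.0474, and it passed edgeR's test with an adjusted p of 0.0321. This call did not hold with DESeq2 (adjusted p = 0.0569) or without Ctrl replicate 1 or any 1 of the AclyM-KO libraries (edgeR adjusted p from 0.0645 to 0.130), while the log2 fold change stayed between -0.17 and -0.13 in every alternative run.

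*Fkbp5*, on chromosome 17 from 28398753 to 28486149, encodes an immunophilin that joins the Hsp90-bound receptor and lowers its affinity for hormone, and its induction by glucocorticoids is a widely used readout of the receptor. The Ctrl libraries had 132, 125 and 125 counts and the AclyM-KO libraries 350, 483 and 368, that is 8.92, 10.2 and 9.49 CPM against 23.9, 31.1 and 25.2 CPM. The lowest AclyM-KO library was far above the highest Ctrl library, and AclyM-KO replicate 2 was the highest of all. The rise was 2.81-fold, a log2 fold change of 1.49 (SE 0.115, edgeR adjusted p = 2.93e-07), and *Fkbp5* ranked number 46 by p-value among all genes tested. It passed in all 16 alternatives, with log2 fold changes from 1.37 to 1.57.

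The gene of the related immunophilin *Fkbp4*, which takes the same place on Hsp90 and favours transport of the receptor, was at 38.9, 39.3 and 37.4 CPM in Ctrl and 42.9, 44.7 and 41.4 CPM in AclyM-KO. Its log2 fold change was 0.16 (SE 0.0626, edgeR adjusted p = 0.0762). Per kilobase of transcript, *Fkbp5* reached 0.144, 0.163 and 0.159 of the *Fkbp4* level in Ctrl, against 0.348, 0.435 and 0.381 in AclyM-KO. The ratio of the levels was 0.155 ± 0.0101 in Ctrl and 0.388 ± 0.0441 in AclyM-KO (SD, n = 3 each), without overlap (two-sided exact permutation test, p = 0.10, the smallest value that 3 against 3 libraries allow). Since *Fkbp5* did not overlap between groups and *Fkbp4* differed little, the ratio restates the *Fkbp5* difference and is no separate result.

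The rest of the receptor's chaperone machinery moved little. Of 12 chaperone genes tested, 3 were higher and 1 lower, all within the fold change limit, with a median log2 fold change of 0.12. Over all genes tested, 12.4% were higher and 12.6% lower, the shares to set beside the counts of this and the later lists. The nucleotide exchange factor gene *Bag1* was higher, with 91.7 ± 0.111 CPM in Ctrl and 111 ± 3.44 CPM in AclyM-KO (SD, n = 3 each, log2 fold change 0.27, edgeR adjusted p = 8.14e-04), as was *Hspa8*, the constitutive Hsp70 (0.22, edgeR adjusted p = 0.00448). *Dnajb1* (0.25, higher) and *Ppid* (-0.35, lower) lost their calls with DESeq2 and without AclyM-KO replicate 1 or 3 or Ctrl replicate 3. The call of *Dnajb1* was also lost with limma-voom, with scaling by library totals only and without Ctrl replicate 2. That of *Ppid* was also lost with a replicate block and without Ctrl replicate 1. The main Hsp90 gene *Hsp90ab1* had a log2 fold change of 0.021 (SE 0.0403, edgeR adjusted p = 0.753). Among 12 coregulator genes tested, the coactivator genes *Ncoa2* (-0.25, edgeR adjusted p = 0.00530) and *Ncoa3* (-0.16, edgeR adjusted p = 0.0249) were lower and the deacetylase gene *Sirt1* (0.21, edgeR adjusted p = 0.0191) was higher. Calls of *Ncoa3* and *Sirt1* were lost without any 1 of the AclyM-KO libraries, and also without Ctrl replicate 1 for *Ncoa3* and without Ctrl replicate 3 or with DESeq2 for *Sirt1*. The other 9 did not pass, and the list had a median of -0.059.

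*Zbtb16*, on chromosome 9 from 48651797 to 48836225, encodes a zinc finger transcription factor, PLZF, that is known as one of the steepest responders to glucocorticoids in several cell types. It was near the limit of detection in Ctrl, with 4, 2 and 5 counts, and had 26, 21 and 26 counts in AclyM-KO. No Ctrl library exceeded 0.379 CPM and no AclyM-KO library was under 1.35 CPM. Summed over libraries, 11 counts stood against 73, a ratio per TMM-scaled library total of 5.96 (exact 95% interval 3.14 to 12.5, which covers counting error only). The fitted log2 fold change was 2.54 (SE 0.406, edgeR adjusted p = 3.03e-04). It ranged from 2.31 to 2.83 over the alternatives and always passed. In the main fit, and in every alternative with a filter on low counts, the gene passed that filter only through AclyM-KO, the group in which it was higher. PLZF is also known from innate-like lymphocytes. The lymphocyte markers together summed to 0.245 to 1.28 CPM in Ctrl and 0.614 to 0.959 CPM in AclyM-KO. In Ctrl the sums reached above the highest *Zbtb16* level, 0.379 CPM, and in AclyM-KO they lay below its lowest, 1.35 CPM. The part of such cells in the *Zbtb16* counts was not tested.

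*Cd163*, on chromosome 6 from 124304636 to 124330529, encodes the scavenger receptor for haemoglobin bound to haptoglobin, a glucocorticoid-induced surface marker of macrophages. The Ctrl libraries lay within a narrow band, 57.6, 58.2 and 58.1 CPM, and the AclyM-KO libraries at 77.5, 82.6 and 78.9 CPM. The log2 fold change was 0.46 (SE 0.0516, edgeR adjusted p = 1.19e-05), below the fold change limit. The call held in all 16 alternatives. Its window carries half-sites at -119 to -114 and at 26 to 31.

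*Zfp36* and *Dusp1* encode effectors through which glucocorticoids are known to restrain inflammatory signalling. *Zfp36*, on chromosome 7 from 28376784 to 28379228, encodes tristetraprolin, which binds AU-rich messenger RNAs and promotes their decay. It was at 162, 168 and 174 CPM in Ctrl and 221, 221 and 208 CPM in AclyM-KO, without overlap (log2 fold change 0.37, SE 0.050, edgeR adjusted p = 6.97e-05). *Dusp1*, on chromosome 17 from 26505591 to 26508472, encodes a phosphatase that switches off the MAP kinases p38 and JNK. It was at 13.7, 17.8 and 17.9 CPM in Ctrl and 20.9, 20.1 and 18.6 CPM in AclyM-KO. The groups did not overlap, but the nearest libraries were close, and the log2 fold change of 0.28 (SE 0.107, 95% interval 0.049 to 0.51) did not pass (edgeR adjusted p = 0.0718). Without Ctrl replicate 2 it passed (0.33, edgeR adjusted p = 0.0377).

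*Per1* and *Klf9*, also direct targets of the receptor in many tissues, were lower in AclyM-KO. *Per1*, on chromosome 11 from 69095108 to 69109965, encodes a repressor of the circadian clock. Its level was 28.4, 32.3 and 26.1 CPM in Ctrl and 19.4, 19.0 and 18.9 CPM in AclyM-KO. All AclyM-KO libraries lay close together and below the Ctrl libraries (log2 fold change -0.59, SE 0.0883, edgeR adjusted p = 1.61e-04). The value was just beyond the fold change limit, and without Ctrl replicate 2 it was within it (-0.52) although it still passed the test. *Klf9*, on chromosome 19 from 23141226 to 23168129, encodes a Krüppel-like transcription factor. It was at 72.3, 72.8 and 75.4 CPM in Ctrl and 54.8, 53.7 and 53.0 CPM in AclyM-KO, a log2 fold change of -0.45 (SE 0.0516, edgeR adjusted p = 1.52e-05). The calls of both genes at an adjusted p-value under 0.05 held in all 16 alternatives.

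The other clock genes did not follow *Per1* as a group. Of 16 tested, 3 were higher and 2 lower, all within the fold change limit, and the median log2 fold change was 0.0054. The repressor gene *Nr1d2*, encoding REV-ERB beta, rose from 33.0 ± 1.14 to 45.0 ± 2.01 CPM (SD, n = 3 each, log2 fold change 0.45, edgeR adjusted p = 1.42e-04). The repressor genes *Bhlhe40* (-0.33, edgeR adjusted p = 0.00137) and *Bhlhe41* (0.31, edgeR adjusted p = 3.36e-04) moved in opposite directions. *Per2* had a log2 fold change of -0.19 (edgeR adjusted p = 0.573) and *Per3* one of 0.43 (edgeR adjusted p = 0.0592).

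*Tsc22d3* and *Sgk1* showed little or no difference. *Tsc22d3*, on chromosome X from 140539528 to 140600522, encodes GILZ, a leucine zipper protein that binds and inhibits NF-kappa B and AP-1. It was at 150, 127 and 148 CPM in Ctrl and 158, 148 and 160 CPM in AclyM-KO. Ctrl replicate 2 was the lowest of all, and the groups overlapped (log2 fold change 0.13, SE 0.0622, 95% interval 0.0023 to 0.27, edgeR adjusted p = 0.130). Its 3 transcript rows share most of their reads, for instance 2218, 2209 and 2042 counts in the first Ctrl library, so the short glucocorticoid-responsive form could not be separated from the longer ones. *Sgk1*, on chromosome 10 from 21882184 to 21999903, encodes a kinase that acts on ion channels and on FOXO factors. It was at 104, 83.9 and 96.2 CPM in Ctrl and 97.2, 97.8 and 95.3 CPM in AclyM-KO, so the Ctrl libraries spanned those of AclyM-KO (log2 fold change 0.031, SE 0.0650, 95% interval -0.11 to 0.17, edgeR adjusted p = 0.773). Without Ctrl replicate 2 the sign turned (-0.052) and the test was still not passed. The gene with the full GRE beside a start had the smallest difference in absolute size of the 10 members, and its 6 transcript rows, at 1521 to 1535 counts in the first Ctrl library, do not show which start was used.

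**Figure D2:**
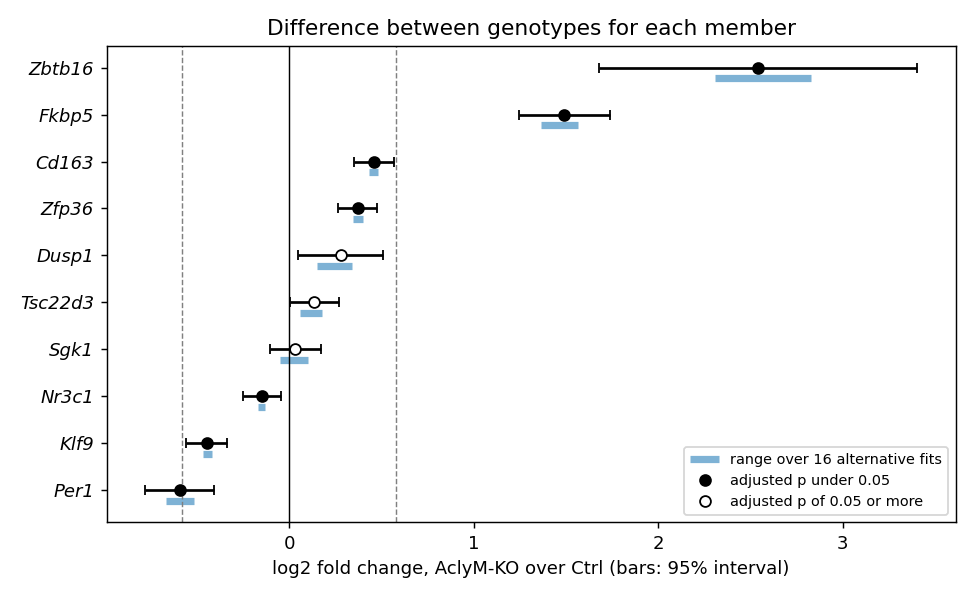
Log2 fold change of AclyM-KO over Ctrl for each member (x axis), with black points for the estimate, filled where the adjusted p was under 0.05, bars for the 95% interval and blue bands for the range over 16 alternative fits. Dashed lines mark the limit of 0.58 in both directions. The estimates run from -0.59 for *Per1* to 2.54 for *Zbtb16*, and only the band of *Sgk1* spans 0.

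Levels can be compared between genes only per length. Per kilobase of the kept transcript, the Ctrl levels ran from *Tsc22d3* at 91.1 ± 8.13 CPM per kilobase and *Zfp36* at 60.2 ± 2.08 through *Sgk1* at 30.6 ± 3.23, *Nr3c1* at 19.2 ± 0.108, *Klf9* at 16.4 ± 0.367 and *Cd163* at 13.0 ± 0.0783 (SD, n = 3). They went on to *Dusp1* at 8.28 ± 1.21, *Per1* at 6.24 ± 0.677, *Fkbp5* at 2.69 ± 0.185 and *Zbtb16* at 0.053 ± 0.0211 CPM per kilobase (SD, n = 3). Among neighbours in this order, only *Dusp1* and *Per1* overlapped between libraries. In AclyM-KO the 3 highest levels had the same order, *Cd163* at 17.9 ± 0.595 stood beside *Nr3c1* at 17.3 ± 0.377, with overlapping libraries, and above *Klf9* at 12.0 ± 0.197, and *Fkbp5* at 7.54 ± 1.08 stood above *Per1* at 4.13 ± 0.0595 CPM per kilobase (SD, n = 3). By its longest listed transcript, *Tsc22d3* was at 78.7 in AclyM-KO, close to *Zfp36* at 77.8, so their separation there depends on the length used.

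Relatives of the members often moved differently from the member itself. The Zfp36 family split, since *Zfp36l1*, which encodes another AU-rich element-binding protein, fell from 185 ± 7.60 to 123 ± 5.80 CPM (SD, n = 3 each, log2 fold change -0.59, SE 0.0533, edgeR adjusted p = 1.43e-06). This change lies at the fold change limit, and the other tested relative, *Zfp36l2*, was at -0.042 (edgeR adjusted p = 0.621). In the Klf family, 5 of the 8 tested relatives of *Klf9* were higher and 0 lower, the opposite direction to *Klf9* (0 were lower also at an unadjusted edgeR p under 0.05 and with DESeq2 or limma-voom). They were *Klf4* (0.48), *Klf16* (0.42), *Klf2* (0.41), *Klf6* (0.33) and *Klf10* (0.19), none with an edgeR adjusted p above 0.0371, and the call of *Klf10* was lost with DESeq2 and without Ctrl replicate 1 or any 1 of the AclyM-KO libraries. Among relatives of *Dusp1*, *Dusp3* (0.40, edgeR adjusted p = 9.14e-06) and *Dusp4* (0.32, edgeR adjusted p = 2.26e-04) were higher. *Dusp16* (0.43) was higher, and *Dusp5* (-0.78) and *Dusp6* (-0.44) were lower, none with an edgeR adjusted p above 0.0398, but each of these 3 calls was lost without AclyM-KO replicate 2 and in at least 2 other fits that left out a library, and without Ctrl replicate 2 the value of *Dusp6* was -0.23. With DESeq2 the calls of *Dusp6* and *Dusp16* were lost as well, and with limma-voom that of *Dusp6*. Of the 12 tested relatives in the Tsc22, Sgk, Per and Fkbp families, 0 passed with edgeR or DESeq2 and 1 with limma-voom, while at an unadjusted edgeR p under 0.05 there were 2 higher and 2 lower. In all, 8 of 30 tested relatives were higher and 3 lower (12.4% and 12.6% of all genes tested), with a median log2 fold change of 0.039. Without AclyM-KO replicate 2 or Ctrl replicate 3, 1 relative was lower.

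**Figure D3:**
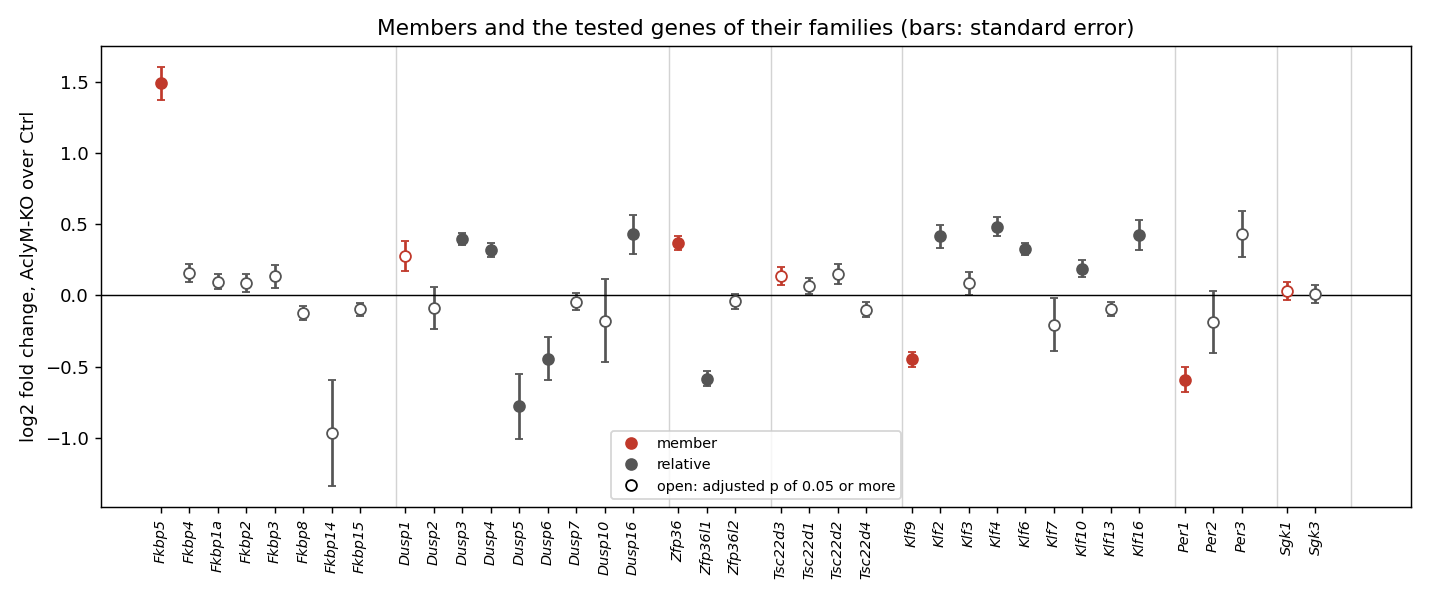
Log2 fold change of AclyM-KO over Ctrl (y axis) for 7 members (red) and the tested genes of their families (grey), with bars for the standard error and open points where the adjusted p was 0.05 or more. *Fkbp5* stands at 1.49 above all its relatives, and *Klf9* at -0.45 lies below 5 Klf genes that were higher.

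A wider list of 31 other glucocorticoid-induced genes went both ways. Of the 27 tested, 7 were higher, 5 lower and 15 did not pass, with a median log2 fold change of 0.14. The shares over all genes tested were 12.4% higher and 12.6% lower. The highest was *Thbs1*, the gene of the matrix glycoprotein thrombospondin 1, at 26.28, 30.02 and 26.03 CPM in Ctrl and 54.9, 69.4 and 62.3 CPM in AclyM-KO (log2 fold change 1.18, SE 0.0858, edgeR adjusted p = 1.78e-07). *Cdkn1c*, the gene of the cell cycle inhibitor p57, was also beyond the fold change limit (0.80, edgeR adjusted p = 0.00425). *Anxa1*, the gene of the anti-inflammatory protein annexin A1, rose from 1798 ± 97.4 to 2427 ± 101 CPM (SD, n = 3 each, log2 fold change 0.43, edgeR adjusted p = 3.12e-06). *Mertk*, which is also one of the macrophage markers and encodes a receptor for apoptotic cells that glucocorticoids raise in macrophages, was lower, at 172, 155 and 156 CPM in Ctrl and 99.3, 93.0 and 99.6 CPM in AclyM-KO (log2 fold change -0.73, SE 0.0554, edgeR adjusted p = 2.56e-07). *Cebpd* (-0.42, edgeR adjusted p = 4.27e-04) was lower as well, and *Pik3ip1* (-0.65, edgeR adjusted p = 0.0216) too, although the latter call was lost without Ctrl replicate 1 or 3 or AclyM-KO replicate 2 or 3. Without AclyM-KO replicate 2, only 4 genes of the list were higher.

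Genes that glucocorticoids are known to repress were mostly lower where they passed. Of 16 tested, 1 was higher, 5 lower and 10 did not pass. Over all genes tested, 12.4% were higher and 12.6% lower. The list had a median log2 fold change of -0.069, with 8 genes above 0 and 8 below. The interleukin gene *Il1a* was lower (-1.02, SE 0.176, edgeR adjusted p = 5.63e-04), as was the gelatinase gene *Mmp9* (-0.85, SE 0.168, edgeR adjusted p = 0.00172), whose value was -0.55 without Ctrl replicate 2. Also lower were *Irf8* (-0.43, edgeR adjusted p = 2.36e-05), *Ccl4* (-0.37, edgeR adjusted p = 0.0155) and *Icam1* (-0.22, edgeR adjusted p = 0.0218). The call of *Ccl4* was lost without AclyM-KO replicate 2 or 3, and that of *Icam1* with DESeq2 and without any 1 of the AclyM-KO libraries. The collagenase gene *Mmp13* was higher, at 68.8, 106 and 78.1 CPM in Ctrl and 211, 185 and 175 CPM in AclyM-KO (log2 fold change 1.18, SE 0.112, edgeR adjusted p = 2.17e-06). *Tnf* had a log2 fold change of 0.23 (edgeR adjusted p = 0.386) and *Ccl2* one of 0.033 (edgeR adjusted p = 0.836). Without AclyM-KO replicate 2 or 3, the number of lower genes was 3.

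Of the genes for steroid handling, *Abcb1b*, which encodes a P-glycoprotein exporter whose substrates include steroids, was higher, at 35.3, 34.8 and 38.9 CPM in Ctrl and 55.9, 56.3 and 60.3 CPM in AclyM-KO (log2 fold change 0.66, SE 0.0644, edgeR adjusted p = 2.76e-06). *Hsd11b1*, which encodes the enzyme that regenerates active glucocorticoid inside cells, had 12, 16 and 10 counts in Ctrl and 4, 10 and 9 counts in AclyM-KO, and no difference was detectable at this depth (log2 fold change -0.87, SE 0.424, edgeR adjusted p = 0.149). The mineralocorticoid receptor gene *Nr3c2*, whose product also binds corticosterone, was covered by 19, 16 and 15 reads in Ctrl against 3, 15 and 4 reads in AclyM-KO (log2 fold change -1.33, SE 0.459, edgeR adjusted p = 0.0453). *Hsd11b1* and *Nr3c2* passed the filter on low counts only through their Ctrl counts, the group in which they were higher. The call of *Nr3c2* also rested on the libraries present, since it was lost with DESeq2 and without AclyM-KO replicate 1 or 3 or any 1 of the Ctrl libraries. Without AclyM-KO replicate 2 its log2 fold change was -2.33.

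*Dusp1*, *Zfp36* and *Per1* are also known as immediate early genes, which growth factor and stress kinases switch on within minutes. The other immediate early genes were lower where they passed. Of 19 tested, 7 were lower with edgeR, against 12.6% of all genes tested, with a median log2 fold change of -0.16. Against 12.4% of all genes tested, 0 of the 19 were higher, also at an unadjusted p under 0.05 or with DESeq2 or limma-voom. Without Ctrl replicate 3, 4 were lower and 1 was higher, *Atf3*, a stress-induced transcription factor gene (0.14, edgeR adjusted p = 0.0499, against 0.095 and 0.172 with all libraries). The lower genes included *Egr2* (-0.48, edgeR adjusted p = 3.39e-05), *Junb* (-0.35, edgeR adjusted p = 2.79e-04) and *Ier3* (-0.36, edgeR adjusted p = 3.27e-04). *Egr1* (-0.60, edgeR adjusted p = 0.0281) and *Egr3* (-0.61, edgeR adjusted p = 0.0197) were beyond the fold change limit, but both calls were lost without AclyM-KO replicate 1 or Ctrl replicate 2 or 3. That of *Egr1* was also lost with DESeq2 or limma-voom and without AclyM-KO replicate 3, and that of *Egr3* also without AclyM-KO replicate 2. Without Ctrl replicate 2 the value of *Egr1* was -0.39. *Zfp36*, which rose, and *Per1*, which fell, were thus on either side of 0, and *Fos* was at -0.16 (edgeR adjusted p = 0.565).

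**Figure D4:**
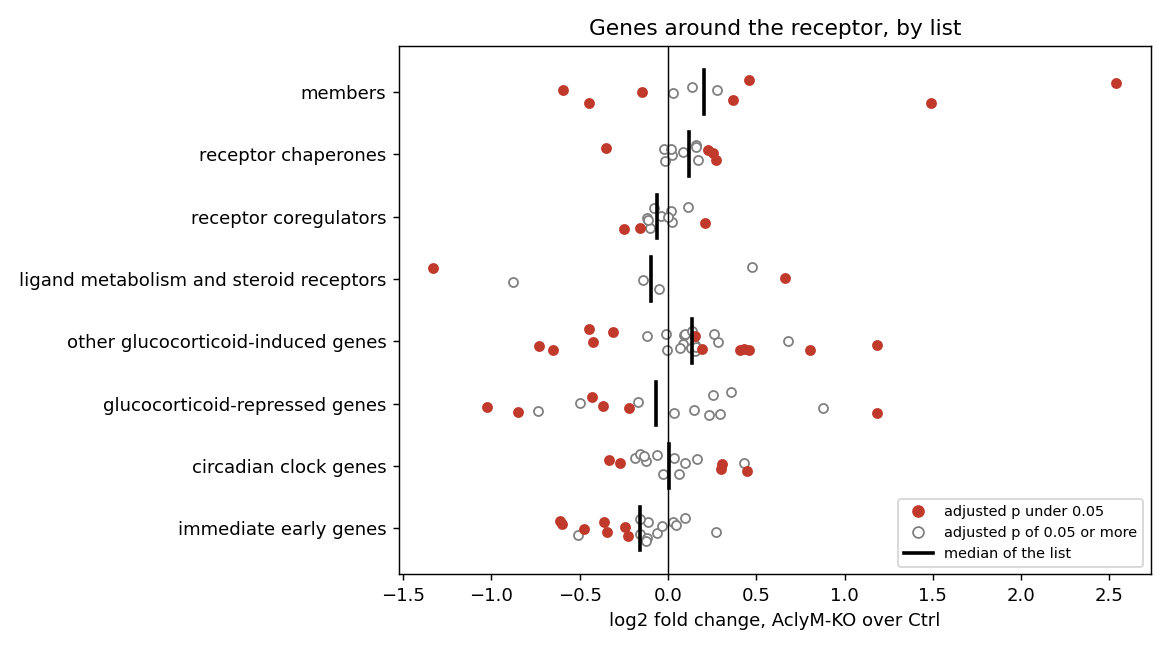
Log2 fold change of AclyM-KO over Ctrl (x axis) for the members and for each list of genes around the receptor (rows), with a point per tested gene, red where the adjusted p was under 0.05, and a black bar for the median of the list. Among the genes shown, the members hold the values farthest to the right, 1.49 and 2.54, and the immediate early genes have no red point to the right of 0. Members and lists were chosen with earlier results known, and genes that failed the filter on low counts are not shown. *Zbtb16*, at 2.54, was tested only through its AclyM-KO counts.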

How the data were processed

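RNA-seq of IL-4-treated BMDMs was analysed, 3 libraries per genotype. Per the labels and methods, the authors made strand-specific mRNA libraries (KAPA), sequenced them on a HiSeq instrument, and aligned reads to mm10 (STAR 2.5.2b). They deposited raw read counts per RefSeq transcript, and the counting program is not given in the sources used here. Of 35745 rows, 35440 were paired with symbols through RefSeq (GRCm38.p6) and 188 through GENCODE M21. The remaining 117 rows, which held 0.370% to 1.38% of a library's counts, did not enter the tests. A read counts on every isoform that holds it, so the row with the highest total was kept per gene.

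Counts were tested with edgeR 4.0.16 (filterByExpr, TMM, glmQLFit, glmQLFTest, genotype only), with Benjamini-Hochberg adjustment over 12023 genes. The common biological coefficient of variation was 0.0588. Intervals of log2 fold changes use edgeR's standard errors and degrees of freedom. The procedure was tested on simulated data. Members and lists were chosen with earlier results of these data known, and no set test was run. Named are the members, *Acly*, called genes of the lists beyond 0.58 (at most 6 per list), *Fkbp4*, *Hsp90ab1*, *Hsd11b1*, *Nr3c2* and called relatives, while other list genes were named after their values were seen. Alternatives were DESeq2 1.42.0, limma-voom (limma 3.58.1), other scalings, filters and rows, glmTreat, thinning, a replicate block and leaving out each library. Promoter sequences are from RefSeq. The looser motif GNACA, 3 bases of any kind and TGTNC, searched after the first results, was in 0.475% of windows and in that of *Sgk1* alone among the members.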

Additional observations from a re-analysis of the deposited data

How the results depend on the processing

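*Fkbp5*, *Zbtb16*, *Cd163*, *Zfp36*, *Klf9* and *Per1* kept their direction and passed in all 16 alternatives, and *Tsc22d3* passed in 0. Every fit with a filter on low counts admitted *Zbtb16*, at 2 to 5 counts per Ctrl library, only through AclyM-KO, where it was higher. Those fits are thus no check of its selection. For *Nr3c1* the test was no longer passed with DESeq2 (-0.150), without a filter on low counts (-0.148) or with a replicate block (-0.149). *Dusp1* passed without Ctrl replicate 2 only (0.333), and *Sgk1* turned sign without the same library (-0.0519). With each library left out, log2 fold changes ran from -0.159 to -0.131 for *Nr3c1*, from 0.152 to 0.339 for *Dusp1* and from -0.0519 to 0.101 for *Sgk1*. By adjusted p alone, without the fold change limit, 4 members were higher and 3 lower. Tested against the limit itself with glmTreat, 2 were higher and 0 lower, and with each library left out 0 to 1 was lower beyond the limit. The cause was not tested.

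Lower chaperone genes numbered 0 with DESeq2 and with the replicate block, and 0 to 1 with each library left out. Higher coregulator genes numbered 0 with DESeq2 and 0 to 1 with each library left out, and lower ones 1 with the replicate block and 1 to 2 with each library left out. Of the other induced genes, 4 to 8 were higher with each library left out, and of the repressed genes, 1 to 2 were higher and 3 to 5 lower. The longest listed transcript gives *Tsc22d3* a level of 71.7 CPM per kilobase in Ctrl and 78.7 in AclyM-KO. Replicate numbers did not pair the libraries, since the same-numbered libraries' deviations correlated at -0.289, 0.037 and -0.115, and the block changed no other call of a member. Over all genes tested, edgeR called 358 higher and 309 lower beyond the limit and glmTreat 77 and 41. Depth limits *Zbtb16*, *Nr3c2* and *Hsd11b1*, which had at most 26 counts in any library.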

Other observations

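*Akr1c18*, which encodes a steroid dehydrogenase that inactivates progesterone and which was on the list of steroid handling genes, did not pass the filter on low counts. It had 0 counts in each of the 3 Ctrl libraries and 10, 10 and 13 counts in the AclyM-KO libraries, and it was singled out after its counts were seen. Fits without the filter, or asking for at least 10 counts in every library of a group, do admit it. In both fits 2 genes of the list were higher, against 1 in the main fit. Lower genes numbered 0 without the filter and 1 with the other rule, against 1 in the main fit.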
